A study of Mus musculus with 6 samples.

Results

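The genes described here code for proteins that move membrane cargo through the cell: Rab and Arf-like GTPases and their partners, SNARE and fusion proteins, tethers and coats, and cytoskeletal motors such as dynein and kinesins. Members were the entries in the study's published table of genes changed in Khsrp-knockout neocortex whose symbol begins with one of a fixed set of family prefixes (Rab, Arl, Vps, Snx, Stx, Vamp, Syt, Sec, Exoc, Tbc1d, Kif and Dyn among those that found a gene). They numbered 48 array probes of 46 genes among the table's 1788 named probes and the 60915 probe names of the array. Of the 48 probes, 44 came from the table's block of genes higher in the knockout and 4 from its lower block. The whole table was split in the same direction, with 1522 higher and 266 lower entries. That split does not describe the array as a whole. Over all probes tested, 9.26% were called higher and 7.03% lower at the unadjusted limits given below. The paper itself reports more mRNAs lowered than raised in the knockout. The balance of higher and lower members therefore says nothing of the balance among trafficking genes outside the table. Snx7 was among the genes with 2 probes. Because that table had been selected on the contrast between knockout and wild type in these same 6 samples, the direction and size of every difference between genotypes below describe the selection and are not a test of it.

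The study asked which transcripts change in the adult mouse brain without KHSRP, a protein that binds AU-rich mRNAs and directs them to degradation. Neocortex of 3 adult male mice with a constitutive (germline) Khsrp deletion, written Khsrp-KO, was compared with neocortex from 3 adult male wild-type (WT) littermates, each RNA on its own one-colour (Cy3) array. The deletion was carried in every cell from conception on a C57Bl/6 background, so developmental and adult effects cannot be told apart, and no other allele or treatment was applied to either group. No named probe reported Khsrp itself, so each array's genotype rests on its label.

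Rab and Arf-like GTPases are molecular switches that, when loaded with GTP, recruit effectors to a given membrane. Tethers then hold an arriving vesicle and SNARE proteins on the facing membranes zip together to fuse them, while dynein and kinesins pull cargo along microtubules. In neurons these steps supply axons, dendrites and synaptic terminals with membrane and protein over long distances.

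Levels are given as scaled log2 signal, the log2 of the processed Cy3 signal minus the same array's 75th percentile, so that a value of 0 is that percentile and a difference of 1 is a doubling. Probes differ in how strongly they bind, so levels are compared between samples for one probe and not between probes. Of each array's spots, 71.3% to 82.6% stood well above background and 0 were saturated. Of the 45 member probes bright enough to test, 44 were well above background on all 6 arrays, where 86.5% of all probes tested were. The median SD between animals over these 45 was 0.21 in Khsrp-KO and 0.14 in WT on the log2 scale, and over all probes 0.27 and 0.17. Arrays read at the same scan time were taken as one slide: WT 1 and 2 on the first, Khsrp-KO 2 and 3 on the second, and Khsrp-KO 1 with WT 3 on the third.

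Across the 41 tested probes of the higher block, the log2 difference between genotypes ran from 0.35 for Rabl2 to 1.98 for Tbc1d25, with a median of 0.49. The other 3 probes of that block, for Stx19, Syt15 and Kif27, were not above background on any WT array, so the size of their differences was not measured. The 4 probes of the lower block, for Arl6ip6, Exoc3l4, Kifc5b and Sec14l1, ran from -1.69 to -0.87 with a median of -1.11. Whether the blocks had been cut at the same fold was not checked, so their medians are not compared. Over all 48436 probes tested, the median difference was -0.00056 and the 10th and 90th percentiles were -0.49 and 0.50. Over the rest of the named table the medians were 0.56 for 1439 tested higher entries and -1.08 for 262 lower entries. Since these are signals of whole tissue, less RNA per cell and fewer cells of a type cannot be told apart in any of them.

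Of the 45 tested probes, 39 were higher at an unadjusted limma p under 0.05 and a log2 difference of at least 0.32, where 9.26% of all probes were called higher, and 4 were lower, where 7.03% were called lower. The vesicle SNARE Vamp7 and the Rab-like Rabl2 did not meet those limits, and Stx19, Syt15 and Kif27 were too dim to test. After Benjamini-Hochberg adjustment over all probes, 0 members passed by limma, with adjusted p from 0.0603 for Tbc1d25 to 0.338 for Vamp7, and 0 by the methods' t-test, while 43 passed the unadjusted limits by limma. In all, 0.095% of probes passed the adjusted limits. All 3 Khsrp-KO arrays lay above all 3 WT arrays for 39 of the 45 tested member probes and below them for the 4 of the lower block, where 12.4% and 9.9% of all probes were so separated. The arrays overlapped only for Vamp7 and for Exoc2, a subunit of the exocyst tether. These counts follow from how the table was made, and nothing is read from them about the family.

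How many members met the unadjusted limits depended on which animal was left out, and each such fit rests on fewer samples. The higher block's median log2 difference moved less, from 0.44 without Khsrp-KO 3 to 0.60 without Khsrp-KO 1, against 0.49 with all arrays. The count of higher members was 22 without Khsrp-KO 2 (8.71% of all probes called higher), 22 without Khsrp-KO 3 (5.83%), 16 without WT 1 (5.2%) and 16 without WT 2 (5.68%). It was 39 without Khsrp-KO 1 (13.7%) and 31 without WT 3 (8.54%), against 39 with all arrays. The count of lower members was 2 without Khsrp-KO 3 (4.06% of all probes called lower), WT 1 (3.09%) or WT 3 (7.09%). There were 15 probes that met the limits in each of the 6 fits that left out an animal. Among them were those of Rab3b, Rab11b, Rab13, Rab42, Rab11fip1, Sytl2, Tbc1d25, Arl2bp, Vps13b, Dync1i1, Kif15, Kif18a and Kif26b, and Exoc3l4 in the lower direction. The share of all probes that did so was not computed. The members had been selected on these same arrays, so nothing is read from this count. Without Khsrp-KO 1, 4 members also passed the adjusted limits by limma, where 4.22% of all probes did: Arl6ip6 (log2 difference -1.83, adjusted p = 0.0200), Kif15 (1.28, adjusted p = 0.0332), Dync1i1 (1.32, adjusted p = 0.0350) and Tbc1d25 (1.94, adjusted p = 0.0371).

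The 9 Rab and Rab-like GTPases all came from the higher block, with log2 differences from 0.35 to 0.71 and a median of 0.49, and all but Rabl2 met the unadjusted limits. They spanned the main transport routes: Rab1 (0.46) acts between the endoplasmic reticulum and the Golgi, Rab5a (0.46) in early endosome fusion, and Rab11b (0.64) in recycling endosomes. Rab42 (0.66), Rabl3 (0.49) and Rab40c (0.46), a Rab with a ubiquitin ligase domain, completed the group apart from the genes below.

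Rab13, which acts in delivery to the cell surface and at cell junctions, read -3.01, -2.80 and -3.46 in Khsrp-KO 1 to 3 and -3.81, -3.67 and -3.90 in WT 1 to 3, as scaled log2 signal. Khsrp-KO 3 was the knockout array closest to WT, and the groups did not overlap. The log2 difference was 0.71 with a limma SE of 0.20, a 1.63-fold higher signal in Khsrp-KO.

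Rab3b, a relative of the Rab3 proteins of synaptic vesicles, read 3.39, 3.74 and 3.86 in Khsrp-KO 1 to 3 and 2.93, 2.87 and 3.19 in WT 1 to 3. The lowest knockout array, Khsrp-KO 1, was 0.21 above WT 3, its partner on the shared slide and the highest WT array. The mean difference was 0.67 with an SE of 0.18 on the log2 scale.

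Rabl2, a Rab-like protein linked to cilia, had the smallest difference of the group. Its levels were -0.49, -0.37 and -0.62 in Khsrp-KO 1 to 3 and -0.93, -0.88 and -0.74 in WT 1 to 3. The knockout arrays were all higher, by 0.35 on average with an SE of 0.15.

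Promoter sequences from RefSeq (build GRCm38.p6, from 250 bases before to 50 after each start site) were held for 37 of the 46 genes. They were searched for a few standard motifs on both strands, whichever block the gene came from, to show letters that the choice of members did not use. The E-box CACGTG, which reads the same on both strands, was in the promoters of 3 genes, Rab5a, Stxbp2 and Vamp4, and in those of 8.09% of all 27025 genes in the table. The cyclic AMP response element TGACGTCA, also its own reverse complement, was in those of Rab5a and Kif18a and of 2.03% of all genes. The GC box GGGCGG or CCGCCC was in those of 23 of the 37 genes and 38.2% of all genes, and the CCAAT box, read as CCAAT or ATTGG, in those of 16 and 41.1%. The E-box and response element windows of Rab5a, Stxbp2 and Vamp4 follow with the motif in capitals, from the plus strand, on which all 3 genes lie.
Rab5a, chr17:53478987-53479016, E-box 235 bases before the start site: aattggagaagaCACGTGacgcaaccccac
Rab5a, chr17:53479127-53479156, E-box 95 bases before the start site: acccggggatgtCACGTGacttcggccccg
Rab5a, chr17:53479195-53479224, response element 28 bases before the start site: agcggcggaaaTGACGTCAcggcgttcttc
Stxbp2, chr8:3631083-3631112, E-box 14 bases before the start site: cggggtggggccCACGTGgatgacgcgtag
Vamp4, chr1:162570340-162570369, E-box 163 bases before the start site: ccatgtacaaccCACGTGctcctccatcgg
Of the genes printed, Rab5a alone held both motifs. A match describes letters in this window and is not a binding site.

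The 6 Rab effectors, modifiers and proteins with a GAP domain were also all from the higher block, with log2 differences from 0.39 to 1.98 and a median of 0.69. Rabep1 (0.62), also called rabaptin-5, binds active Rab5, Sytl2 (0.76) binds Rab27, and Tbc1d10c (0.41) carries the domain that switches Rabs off. All 6 met the unadjusted limits.

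Tbc1d25, a Rab GAP that acts in autophagosome maturation, had the largest difference among the member probes that were tested. Its levels were -2.87, -3.14 and -2.86 in Khsrp-KO 1 to 3 and -4.79, -5.47 and -4.55 in WT 1 to 3. The knockout arrays formed a tight group more than 1 log2 unit above the highest WT array, and the mean difference was 1.98 with an SE of 0.26, or 3.95-fold. Its probe was well above background on all 3 Khsrp-KO arrays but on 2 of the 3 WT arrays, so the WT mean is close to the limit of detection. With normexp background correction (offset 50) in place of the processed signal, the log2 difference was 0.68.

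Rab11fip1, which binds Rab11 on recycling endosomes, read -0.79, -0.60 and -0.063 in Khsrp-KO 1 to 3 and -1.20, -1.27 and -1.57 in WT 1 to 3. Khsrp-KO 3 stood highest and the groups did not overlap, with a difference of 0.86 and an SE of 0.23 on the log2 scale.

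Rabggtb, a subunit of the enzyme that attaches the lipid anchor to Rabs, had the smallest difference of its group. It read 0.70, 0.97 and 0.85 in Khsrp-KO 1 to 3 and 0.52, 0.33 and 0.51 in WT 1 to 3. The groups were separate but near, at a mean log2 difference of 0.39 with an SE of 0.15.

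Among 6 Arf-like GTPases and partners, 5 were from the higher block, with log2 differences from 0.41 to 0.73, and Arl6ip6 was from the lower block. Arl1 (0.48) and Arl5a (0.49) act at the trans-Golgi, and Arl6 (0.42) works with the BBSome in sending proteins to cilia. All 5 had smaller differences on the shared slide than on the others, with medians of 0.20 and 0.62.

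Arl2bp, a binding partner of Arl2, read 0.42, 0.51 and 1.06 in Khsrp-KO 1 to 3 and -0.052, -0.18 and 0.024 in WT 1 to 3. All knockout arrays were above all WT arrays, with Khsrp-KO 3 the highest, and the log2 difference was 0.73 with an SE of 0.20.

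Arl8b, which links lysosomes to kinesin, read 2.31, 2.77 and 2.51 in Khsrp-KO 1 to 3 and 2.14, 2.11 and 2.11 in WT 1 to 3. The WT arrays hardly differed from each other, at an SD of 0.016 against 0.23 in Khsrp-KO. The log2 difference was 0.41 with an SE of 0.17.

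Arl6ip6, a membrane protein named for binding Arl6, read 3.63, 2.23 and 1.98 in Khsrp-KO 1 to 3 and 4.03, 4.07 and 3.71 in WT 1 to 3. Khsrp-KO 1 was within 0.077 of WT 3, the lowest WT array, while the other 2 knockout arrays were far below all WT arrays. The mean difference was -1.32 with an SE of 0.41 on the log2 scale, made up of -0.077 on the shared slide and -1.95 on the others.

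The 6 SNAREs and fusion regulators came from the higher block, and 4 of them could be tested. Stxbp2 (0.52), or Munc18-2, binds syntaxins and assists fusion, while Stxbp5l (0.48), or tomosyn-2, is known as a brake on it. Vamp7, a vesicle SNARE of late endosomes linked to neurite growth, had a difference of 0.43 but overlapping groups, since Khsrp-KO 1 read 5.27 and WT 3 read 5.38.

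Vamp4, a vesicle SNARE of the trans-Golgi, read -0.075, -0.013 and -0.033 in Khsrp-KO 1 to 3 and -0.44, -0.34 and -0.46 in WT 1 to 3. Both genotypes were tight, with SDs of 0.032 and 0.064, and the groups did not overlap at a log2 difference of 0.37 with an SE of 0.14. The shared slide gave 0.38 and the others 0.36.

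Stx19, a syntaxin without a membrane anchor, read -3.76, -5.04 and -4.51 in Khsrp-KO 1 to 3 and -7.28, -7.19 and -6.84 in WT 1 to 3. Its probe was well above background on 2 Khsrp-KO arrays and on 0 WT arrays, so WT has only a bound. The mean of all 3 Khsrp-KO arrays was 1.39-fold above that bound. That mean takes Khsrp-KO 2 at its measured value, although it was not well above background, so the fold is not a strict lower limit. With 2 of 6 arrays above background it did not enter the fit.

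Syt15, a synaptotagmin that does not bind calcium, was likewise near background. It read -4.54, -4.70 and -4.75 in Khsrp-KO 1 to 3 and -5.24, -5.21 and -6.10 in WT 1 to 3. With 1 Khsrp-KO array and 0 WT arrays well above background, no fold is given.

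The tethers, coats and sorting proteins gave 9 probes of 8 genes, 7 probes from the higher block at 0.41 to 0.63 and 2 from the lower block. Vps13b (0.63) is a lipid transfer protein of the Golgi, Exoc2 (0.55) an exocyst subunit, Vps8 (0.45) part of an early endosome tether and Vps26b (0.44) part of retromer, which returns receptors from endosomes. None of the 7 higher probes reached the fold limit on the shared slide, where they ran from -0.020 to 0.28, and all were larger on the other slides, at 0.53 to 0.84.

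The 2 probes of Snx7, a sorting nexin of endosomes, gave separate readings of one gene. Probe A read 1.24, 1.58 and 1.68 in Khsrp-KO 1 to 3 and 1.0, 0.80 and 1.04 in WT 1 to 3. Probe B read 1.19, 1.42 and 1.42 in Khsrp-KO 1 to 3 and 0.67, 0.49 and 1.04 in WT 1 to 3. Neither overlapped, and the differences of 0.56 (SE 0.18) and 0.61 (SE 0.19) lay within each other's error. Both probes had been selected on this contrast, and a probe of the gene that did not change would not be named. Their likeness is therefore not a check of either.

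Sec16a, which organises endoplasmic reticulum exit sites, had the smallest difference of this group. Its levels were -0.61, -0.22 and -0.21 in Khsrp-KO 1 to 3 and -0.64, -0.88 and -0.75 in WT 1 to 3. Khsrp-KO 1 was barely above WT 1, the highest WT array, and the mean difference was 0.41 with an SE of 0.17.

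Exoc3l4, a relative of an exocyst subunit, had the largest difference of the lower block. It read -2.33, -1.62 and -3.14 in Khsrp-KO 1 to 3 and -0.85, -0.71 and -0.46 in WT 1 to 3. The knockout arrays were all below the WT arrays but spread widely, and the mean difference was -1.69 with an SE of 0.36 on the log2 scale. The shared slide gave -1.87 and the others -1.60, so the difference was not smaller within a slide for this gene.

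Sec14l1, whose name matched but which is a Sec14-like lipid-binding protein and not a Sec coat subunit, read 0.82, 0.64 and -0.24 in Khsrp-KO 1 to 3 and 1.32, 0.89 and 1.60 in WT 1 to 3. Khsrp-KO 1 was just under WT 2, and Khsrp-KO 3 stood far lower than the other arrays. The difference was -0.87 with an SE of 0.32 on the log2 scale.

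The 3 dynein genes were all higher in Khsrp-KO, at log2 differences of 0.40 to 1.21, and the groups did not overlap for any of them. Dync1i1 and Dync1i2 code for intermediate chains of cytoplasmic dynein, which connect the motor to dynactin, and Dynlt3 for a light chain.

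Dync1i1, the intermediate chain typical of neurons, read -2.69, -2.42 and -2.32 in Khsrp-KO 1 to 3 and -3.39, -3.90 and -3.76 in WT 1 to 3. Each knockout array lay well above the highest WT array, at a mean log2 difference of 1.21 with an SE of 0.19, or 2.31-fold. On the shared slide the difference was 1.07 and on the others 1.28. With normexp background correction it was 0.63 over all arrays.

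Dync1i2, its broadly expressed relative, read 0.47, 0.50 and 0.36 in Khsrp-KO 1 to 3 and 0.085, -0.028 and 0.067 in WT 1 to 3. Both groups were tight, and the mean log2 difference of 0.40 (SE 0.14) was also 0.40 on the shared slide and 0.40 on the others.

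Dynlt3 read 5.71, 5.84 and 6.17 in Khsrp-KO 1 to 3 and 5.40, 5.44 and 5.64 in WT 1 to 3. Khsrp-KO 1 was only 0.076 above WT 3, and the mean log2 difference was 0.42 with an SE of 0.18.

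Of the 7 kinesins, 6 were from the higher block and Kifc5b from the lower. Kif18a (0.77), Kif15 and Kif23 are known mainly for the mitotic spindle and cell division, Kif9 (0.43) and Kif27 for cilia, and Kif26b (0.87) is an unusual kinesin that binds microtubules without motor activity. None of the 7 belongs to the kinesin families best known for carrying axonal cargo, although the group's name covers both. Mki67 and Ccnb1, the 2 of 6 dividing-cell markers that the table named, were higher in Khsrp-KO, at log2 differences of 0.89 and 0.65. The table names changed genes only and the other markers had no named probe, so this says nothing of dividing cells as a whole. The summed scaled signal of Mki67 and Ccnb1 on a linear scale was 1.15 to 1.37 in Khsrp-KO and 0.683 to 0.842 in WT. Their part in the kinesin values was not tested.

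Kif15, a spindle kinesin also found in neurons, read -3.40, -3.28 and -3.34 in Khsrp-KO 1 to 3 and -4.81, -4.61 and -4.35 in WT 1 to 3. The knockout arrays were nearly equal, at an SD of 0.062, and stood apart from all WT arrays. The means were -3.34 in Khsrp-KO and -4.59 in WT, a 2.38-fold higher signal, and the log2 difference was 0.95 on the shared slide and 1.40 on the others.

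Kif27, a kinesin linked to motile cilia, read -3.83, -4.36 and -3.43 in Khsrp-KO 1 to 3 and -5.50, -7.19 and -6.32 in WT 1 to 3. With 2 Khsrp-KO arrays and 0 WT arrays well above background, WT has only a bound. The mean of all 3 Khsrp-KO arrays was 2.05-fold above that bound. Here too Khsrp-KO 2 was not well above background and entered at its measured value, so the fold is not a strict lower limit. None of the 6 markers fixed for ependyma and motile cilia was named in the table, so those cells could not be followed here.

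Kif23, which bundles microtubules at the end of cell division, had the smallest difference of the kinesins. It read -1.56, -1.72 and -1.44 in Khsrp-KO 1 to 3 and -1.89, -1.86 and -2.13 in WT 1 to 3. The groups did not overlap, and the mean difference of 0.39 (SE 0.16) was 0.56 on the shared slide and 0.30 on the others.

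Kifc5b, a minus-end kinesin, read 4.49, 4.17 and 3.20 in Khsrp-KO 1 to 3 and 4.87, 4.78 and 4.92 in WT 1 to 3. The WT arrays were tight, at an SD of 0.069, while Khsrp-KO 3 stood far below the other arrays. The mean log2 difference was -0.90 with an SE of 0.32, and since the gene has the near-identical relative Kifc1, the probe may read both.

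The slide on which both genotypes were read gave a second view of the 45 tested probes, from 1 mouse of each genotype. There, Khsrp-KO 1 was above WT 3 for 39 of the 41 higher-block probes, where 49.5% of all probes were, the exceptions being Vamp7 (-0.11) and Exoc2 (-0.020), and it was below WT 3 for all 4 lower-block probes. The median log2 difference of the higher block was 0.25 on this slide and 0.67 between the slides that held 1 genotype each, and 36 of the 41 probes had the smaller difference on the shared slide. The fold limit of 0.32 on the log2 scale was reached by 16 of 41 (39.0%), where 18.1% of all probes and 52.2% of the rest of the table's tested higher entries reached it upwards. It was reached by 3 of the 4 lower ones, where 14.1% of all probes and 63.4% of the table's other lower entries reached it downwards. These arrays had entered the selection too, so the shared slide is not independent of it.

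Khsrp-KO 1 was the knockout array nearest to WT for 32 of the 41 tested higher-block probes (78.0%), for 71.2% of the rest of the table's higher entries and for 58.9% of all probes called higher. In the lower block it was nearest for 3 of 4, for 67.6% of the table's other lower entries and for 70.5% of all probes called lower. Since Khsrp-KO 1 alone shared a slide with a WT array, an animal that differed less and a slide effect cannot be told apart.

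Slide and signal level went together. For the 23 tested higher-block probes with a mean signal above the array's 75th percentile, the median difference on the shared slide was 0.16, and 5 of them (21.7%) reached the fold limit there, where 47.5% of all called-higher probes above the percentile did. For the 18 below the percentile, the median was 0.38 and 11 (61.1%) reached it, where 73.2% did. Over all slides the medians were alike, at 0.49 and 0.47. The bright probes with small differences on the shared slide included Arl6 (0.021), Stxbp5l (0.051), Rabep1 (0.066), Dynlt3 (0.076) and Arl1 (0.091), and why brightness and slide moved together was not tested.

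With the slide as a fixed block, 5 higher members and 0 lower ones met the unadjusted limma limits, where 3.64% and 2.26% of all probes did. They were Tbc1d25 (1.68), Dync1i1 (1.07), Kif15 (0.95), Sytl2 (0.92) and Rabl3 (0.53), as log2 differences on the shared slide. That fit has fewer residual degrees of freedom and rests on 1 pair of animals for its estimate, and 0 members passed after adjustment, as did 0 of all probes.

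Trafficking genes outside the prefixes of the rule were looked up from a list of 117, and the table named 13, all from its higher block. By the unadjusted limits 12 were higher and 0 lower, and Cadps2 (0.33) was not called, where 9.26% and 7.03% of all probes and 90.1% of the table's other tested higher entries were called. They included synaptic vesicle genes, namely the SNARE Snap25 (0.55), the priming factor Cadps (0.37), Napa (0.49), which helps to recycle SNAREs, and the complexin Cplx3 (0.41). The Rab escort and recycling proteins Chm (0.60), Chml (0.74) and Gdi2 (0.52), the endocytic genes Dnm3 (0.48) and Snap91 (0.49), the mitochondrial transport GTPase Rhot1 (0.61), and Ift20 (0.41) and Ift88 (0.81) of ciliary transport made up the rest. Their median was 0.49, and the other 104 genes had no named probe, so this says nothing of the list as a whole.

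Of the cell type markers, the table named 1 of 10 for neurons (Snap25), 2 of 8 for astrocytes (Slc1a2 and Fabp7) and 0 for oligodendrocytes, microglia or endothelium. The summed scaled signal on a linear scale was 39.4 to 63.5 in Khsrp-KO and 31.4 to 35.4 in WT for the neuron marker, and 47.8 to 69.0 against 35.1 to 43.3 for the astrocyte pair. All 3 were well above background on all 6 arrays, and their part in the trafficking values was not tested. The table names changed genes only, so these sums say nothing of the markers it did not name.

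The 46 genes were spread over 18 chromosomes, with at most 5 genes on any one (16 and 2). Rab5a, Rab11b, Rab40c and Kifc5b lie on chromosome 17 with Khsrp, where the flanking DNA of the targeted strain can differ from WT. The first 3 were from the higher block at 0.46, 0.64 and 0.46 and Kifc5b from the lower at -0.90, and whether flanking DNA had a part in these values was not tested.

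The higher-block members nearest to the selection limit were small differences by construction. In the authors' normalized log2 values, the smallest of the higher block were Dynlt3 (0.35), Rabl2 (0.36) and Rabggtb (0.36), just inside the limit of 0.32. In the lower block the ratio of mean unscaled signals, Khsrp-KO over WT, was 0.489 for Kifc5b, 0.483 for Sec14l1, 0.399 for Arl6ip6 and 0.278 for Exoc3l4. Those ratios are not corrected for the brightness of the arrays, so they are not comparable with the normalized values. In scaled signal the folds of these genes, in the same order, were 0.535, 0.548, 0.399 and 0.310. Their log2 differences ran from -1.69 to -0.87, so none lay near 0.32 in size. Whether the lower block had been cut at a stricter fold was not checked. Probes just outside the limits carried no symbol and could not be named.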

How the data were processed

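The authors labelled rRNA-depleted RNA with random and oligo(dT) primers, hybridised it to Arraystar mouse lncRNA arrays and deposited scanner files of Agilent Feature Extraction 11.0.1.1 (version per the file headers). The deposited columns used were the processed signal intensity, background-corrected by that software, and its 0 or 1 marks for spots well above background, controls and outliers. The authors' deposited normalized log2 values served as an alternative.

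Control and outlier spots were left out, spots of a probe averaged, and log2 signals reduced by each array's 75th percentile. The 48436 probes that stood well above background on 3 or more arrays were fitted with limma 3.58.1 in R 4.3.3 (lmFit and eBayes, no covariates) with Benjamini-Hochberg adjustment over all of them, after a check on simulated data. Calls were made at an unadjusted p under 0.05 (the study's plot) or an adjusted one (its methods), with a log2 difference of at least 0.32. The number of arrays, 3 mice per genotype, limits the precision. An exact two-sided permutation test of 3 against 3 cannot go below p = 0.1.

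Symbols came from the study's published table of changed genes, by probe name in its higher block and, for all 266 lower entries, by raw values within a relative tolerance of 2e-05. Its own fold changes and p-values were not used. Members, lists and tests were chosen with earlier results of these data known. Values on every array are printed for the 2 largest and the smallest difference in each role, the lower block, genes with 2 probes, and members not above background on all arrays of a genotype. Vamp7 was added after its values were seen, because its groups overlapped. Replicate numbers were not taken to pair the samples, since same-numbered deviations correlated at -0.31, 0.10 and -0.31. One member gene is counted but not reported here by name.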

Additional observations from a re-analysis of the deposited data

How the results depend on the processing

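With 3 mice per genotype, the unadjusted counts moved with the animals and the slide, while directions mostly held. The 39 higher members became 7 without scaling, where the median of all probes moved to -0.29, and 2.52% of all probes were called higher and 15% lower. Scaling takes out each array's 75th percentile, in log2 signal 8.851, 8.457 and 8.424 in Khsrp-KO 1 to 3. In WT 1 to 3 it was 8.925, 8.956 and 8.725. The 39 became 25 with the slide as a random block (6.97% of all probes called higher), 5 with it as a fixed block (3.64%) and 16 at a limit of 1.5-fold (5.63%). Leaving out 1 animal gave 16 to 39 higher, 2 to 4 lower and 0 to 4 adjusted calls. With the replicate number as a block, although the numbers do not pair the samples, 21 higher and 3 lower members met the limits, where 7.31% and 5.51% of all probes did. The 4 lower members became 1 by the methods' t-test (3.75% of all probes called lower) and 0 with the slide as a fixed block (2.26%). Without scaling, 23 members had groups that did not overlap, against 43 of the 45 tested with it. The share of all probes without overlap was 12.4% above and 9.9% below with scaling, and was not computed without it. The higher block's median of 0.49 over tested probes was 0.19 unscaled and 0.25 in the fit with a fixed slide block, and the lower block's median of -1.11 became -1.41 and -0.60, and -1.44 to -0.78 without 1 animal. Vamp7 (-0.11) and Exoc2 (-0.020) reversed with the slide as a fixed block. Of 809 values of single probes under alternatives, 733 kept their place, 74 moved and these 2 reversed. The offset between arrays enters the unscaled values by construction. For the other alternatives the cause was not tested, except that each fit without an animal rests on fewer samples. Quantile or median scaling, normexp background, the authors' normalized values, other filters, a floor of 5 and trended robust variances gave 33 to 40 higher and 4 lower members. In these fits 8.27% to 11% of all probes were called higher and 5.06% to 7.98% lower. With normexp background, dim probes had smaller differences: Tbc1d25 0.68, Dync1i1 0.63, Kif15 0.53, Rab13 0.39 and Exoc3l4 -1.025. The higher block's median was then 0.44. Dim probes, chiefly Stx19, Syt15, Kif27 and Tbc1d25, have WT levels at or near background.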
